A study of Homo sapiens with 12 samples.

Results

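Intronic hnRNPK peaks away from gene starts were examined in 6 peak lists from chromatin immunoprecipitation and sequencing (ChIP-seq) in HCT116, a line established from a human colorectal carcinoma. All cells, controls included, overexpressed hnRNPK. The cells were grouped as CRLM1 overexpression (CRLM1-OE), empty control and antisense control. Each group had 2 replicates of the immunoprecipitate (IP) with an input library for each, which makes 12 samples. CRLM1 is a long noncoding RNA that was studied for its effect on the binding of hnRNPK to chromatin. A peak was taken as intronic when its midpoint lay in the body of a protein-coding gene, in no annotated exon of any gene, and more than 1 kb from the 5′ and 3′ end of every gene (GENCODE release 44, GRCh38). By this rule 5776 of the 16214 peaks on chromosomes 1 to 22, X and Y were intronic, or 35.6% of them.

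hnRNPK is a nuclear protein with KH domains that binds C-rich stretches of RNA and of single-stranded DNA. It takes part in transcription and in the splicing of nascent transcripts, and introns make up most of the length of those transcripts. First introns often carry regulatory elements near the promoter, whereas later introns lie farther from it. A C-rich stretch can lie on the strand that matches the transcript (sense) or on the other strand (antisense), where it reads as a G tract on the sense strand.

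The sequences of the intronic regions called in the most lists are shown because these regions recur. They are not typical of intronic peaks in their GC content, which is 58.0 to 77.0% in the first 4 stretches printed and averages 38.5 to 46.0% over the intronic peaks of a list. Overlapping peaks (1 bp or more) from different lists were joined as regions, and the central 200 bases of 4 of the 5 regions in the most lists are printed below from hg38, 5′ to 3′ on the strand of the host gene. The highest-scoring peak in RBFOX3, the host gene with the most intronic peaks, is printed last and was chosen after its values were seen. Capitals mark runs of at least 4 C or 4 G.
SEPTIN9 intron 2, chr17:77356631-77356830, plus strand: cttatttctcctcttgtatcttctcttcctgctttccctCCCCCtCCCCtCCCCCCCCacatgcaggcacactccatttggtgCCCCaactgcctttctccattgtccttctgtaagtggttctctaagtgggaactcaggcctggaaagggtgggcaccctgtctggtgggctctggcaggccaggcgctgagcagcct
PKM intron 1, chr15:72230130-72230329, minus strand: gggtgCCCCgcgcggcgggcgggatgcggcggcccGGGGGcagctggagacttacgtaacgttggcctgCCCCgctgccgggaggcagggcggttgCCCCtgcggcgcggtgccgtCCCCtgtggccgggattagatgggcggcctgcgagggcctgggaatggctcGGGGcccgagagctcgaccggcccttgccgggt
NOTCH1 intron 2, chr9:136528371-136528570, minus strand: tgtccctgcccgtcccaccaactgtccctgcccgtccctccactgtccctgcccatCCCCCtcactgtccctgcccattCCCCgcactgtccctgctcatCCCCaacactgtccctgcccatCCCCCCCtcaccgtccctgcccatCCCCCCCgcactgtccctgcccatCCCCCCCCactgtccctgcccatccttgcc
ENSG00000273734 intron 1, chr19:2302649-2302848, plus strand: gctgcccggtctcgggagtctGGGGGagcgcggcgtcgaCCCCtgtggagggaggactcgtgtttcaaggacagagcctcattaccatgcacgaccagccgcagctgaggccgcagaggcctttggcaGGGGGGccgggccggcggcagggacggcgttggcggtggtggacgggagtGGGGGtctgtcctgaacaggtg
RBFOX3 intron 4, chr17:79232476-79232675, minus strand: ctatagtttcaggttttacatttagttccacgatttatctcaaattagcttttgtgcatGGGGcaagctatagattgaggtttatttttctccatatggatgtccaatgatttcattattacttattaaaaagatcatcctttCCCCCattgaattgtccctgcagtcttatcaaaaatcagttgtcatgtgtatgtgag

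The stretches in SEPTIN9, which encodes a septin of the cytoskeleton, and in NOTCH1, which encodes a cell surface receptor, held 4 and 6 C runs and no G run. The stretch in PKM, the gene of a pyruvate kinase, held 4 C runs and 2 G runs at 77.0% GC. The stretch in ENSG00000273734 held 1 C run and 3 G runs. The RBFOX3 stretch was AT-rich, with 34.0% GC, 1 C run and 1 G run. It is not typical of the intronic peaks in that gene, whose mean GC content was 53.8%.

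The lists were not alike within groups. In CRLM1-OE replicate 1 and empty control replicate 2 the median width of the intronic peaks was 494 and 510 bp, and in the other 4 lists 659 to 731 bp. Empty control replicate 1, the shortest list, had intronic peaks of the lowest GC content, the largest median exon distance and the longest host genes, so these values are given for every list.

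The share of peaks that were intronic was under the share of the genome that is intronic. In the CRLM1-OE lists 1575 of 4339 peaks (36.3%, 95% Wilson interval 34.9 to 37.7%) and 1044 of 3163 peaks (33.0%, 31.4 to 34.7%) were intronic. In the empty control lists the numbers were 592 of 1619 (36.6%, 34.3 to 38.9%) and 972 of 2607 (37.3%, 35.4 to 39.2%). In the antisense control lists they were 800 of 2262 (35.4%, 33.4 to 37.4%) and 793 of 2224 (35.7%, 33.7 to 37.7%). These intervals cover counting error only. Bases that meet the same rule (eligible bases) sum to 1137 Mb of 2938 Mb outside assembly gaps, or 38.7%. All 6 lists lay below that share, by 3.02 ± 1.48 percentage points (SD, n = 6 lists). With 6 lists the smallest p-value of an exact sign-flip permutation test is 0.03125, which this difference reached, and it did not pass after Benjamini-Hochberg adjustment over 11 comparisons with the eligible bases (adjusted p = 0.172). The difference was -4.96 percentage points for peaks above the median score of their list and -6.66 for the 1000 highest-scoring peaks. For peaks clear of exons over their whole width it was -7.67. That value is lower by construction, since exon-touching peaks were dropped while the bases stayed the same. Per Mb, intronic peaks were 0.956 to 1.11 times as dense as peaks more than 10 kb from any gene.

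No comparison of groups on this share could pass the test. It was 34.7% ± 2.33 with CRLM1-OE, 36.9% ± 0.508 with the empty and 35.5% ± 0.205 with the antisense control (SD, n = 2 lists each). CRLM1-OE was lower than the empty control by a difference of -2.27 percentage points, with both lists below both (exact permutation p = 0.333, two-sided), and by -0.626 without CRLM1-OE replicate 2. That is the smallest p-value that 2 lists against 2 allow, and for CRLM1-OE against all 4 control lists the smallest is 0.133, so no comparison of groups here could pass 0.05. Over the 20 group comparisons made on 5 measures, the lowest adjusted p was 0.784.

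**Figure D1:**
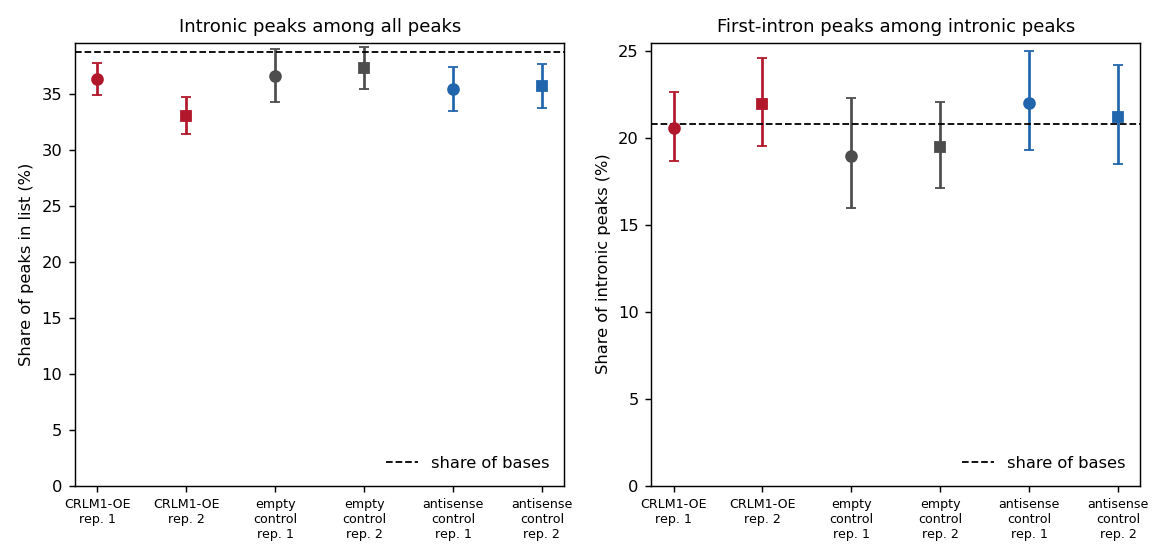
Share of all peaks that were intronic (left, %) and share of intronic peaks that lay in the first intron (right, %) in each list. Points are lists, bars are 95% Wilson intervals and dashed lines are the share of bases. Every point on the left lies below the line at 38.7%, and the points on the right lie on both sides of the line at 20.8%.

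Peaks just inside and just outside the 1 kb limit were equally numerous. There were 133 intronic peaks with a midpoint 1 to 1.25 kb from the nearest gene end, and 133 peaks outside exons at 0.75 to 1 kb, which the rule left out. Of all intronic peaks, 766 (13.3%) touched an exon with their flanks although their midpoint did not. In all, 271 (4.69%) lay in more than 1 protein-coding gene and were given to the longest.

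The share of peaks in first introns lay on both sides of their share of bases. Introns were numbered along the Ensembl canonical transcript of the host gene. In CRLM1-OE 20.6% and 21.9% of the intronic peaks lay in the first intron, in the empty control 18.9% and 19.4%, and in the antisense control 22.0% and 21.2%. First introns hold 20.8% of the eligible bases, so 3 lists were above and 3 below (mean difference -0.10 percentage points ± 1.28, SD, n = 6, exact sign-flip permutation p = 0.844, adjusted p = 0.844). Both empty control lists were lower than the other 4 lists. The difference was 2.07 percentage points for CRLM1-OE minus empty control and 2.41 for antisense control minus empty control (exact permutation p = 0.333 for each, the smallest possible). More than 5 kb from every gene end these differences were 0.380 and 0.829 percentage points, and the lists of CRLM1-OE and the empty control then overlapped. CRLM1-OE and the antisense control overlapped.

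Second and later introns were near their share of bases too. Relative density is the share of intronic peaks in a class divided by the share of eligible bases in it. It was 0.911 to 1.11 over the 6 lists in second introns, with 776 peaks, and 0.956 to 1.08 in later introns, with 3074 peaks. Another 728 peaks lay in intronic sequence outside the introns of the canonical transcript, at 0.861 to 1.20. At 1 to 5 kb from the 5′ end of the host gene the relative density was 1.28 and 1.54 with CRLM1-OE, 0.490 and 0.987 with the empty and 1.51 and 1.60 with the antisense control. The empty control lists held 13 and 43 peaks in that class, and both were below the other 4 lists. Beyond 100 kb the relative density was 0.832 to 1.12 in the 6 lists, and it was highest in empty control replicate 1.

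Peaks lay nearer to exon edges than eligible bases do in 5 of 6 lists. The median distance to the nearest exon edge was 2801 and 2472 bp with CRLM1-OE, 4358 and 3010 bp with the empty, and 2701 and 2767 bp with the antisense control, against 3726 bp for eligible bases. Within 1 kb of an exon edge lay 27.3% and 27.7% of the peaks with CRLM1-OE, 19.9% and 27.5% with the empty, and 27.3% and 26.6% with the antisense control, against 22.3% of the bases. The exception each time was empty control replicate 1, and without it the log2 ratio of the median distance to that of the bases moved from -0.33 to -0.44, a mean over lists (exact sign-flip permutation p = 0.0625 for each). The excess within 1 kb was 3.74 ± 3.01 percentage points (SD, n = 6, exact sign-flip permutation p = 0.0625, adjusted p = 0.172). Against bases with the same GC content the excess was 2.10 ± 1.84 percentage points (p = 0.0625 by the same exact test, positive in 5 of 6 lists). The median was 0.73-fold in CRLM1-OE relative to the empty control (log2 difference -0.46, exact permutation p = 0.333), and this rested on empty control replicate 1, since without it the log2 difference was -0.19.

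The 3364 host genes had a median length of 114 kb, against 34.6 kb for the 16649 genes with any eligible base. Weighted by eligible bases, however, the expected median host length was 207 kb, and the lists gave 172 and 168 kb with CRLM1-OE, 263 and 178 kb with the empty, and 181 and 160 kb with the antisense control. The median was below the expected length in 5 of 6 lists (exact sign-flip permutation p = 0.188 over 6 lists, adjusted p = 0.229), and above it in empty control replicate 1. The mean log2 ratio to the expected length was -0.17 over all lists and -0.27 without empty control replicate 1 (exact sign-flip permutation p = 0.0625, the smallest that 5 lists allow). In host genes under 25 kb, which held 377 peaks, the relative density had a median of 1.60 and a range of 0.783 to 1.88. In host genes of 500 kb or more, with 1209 peaks, the median was 0.914 and the range 0.809 to 1.17.

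**Figure D2:**
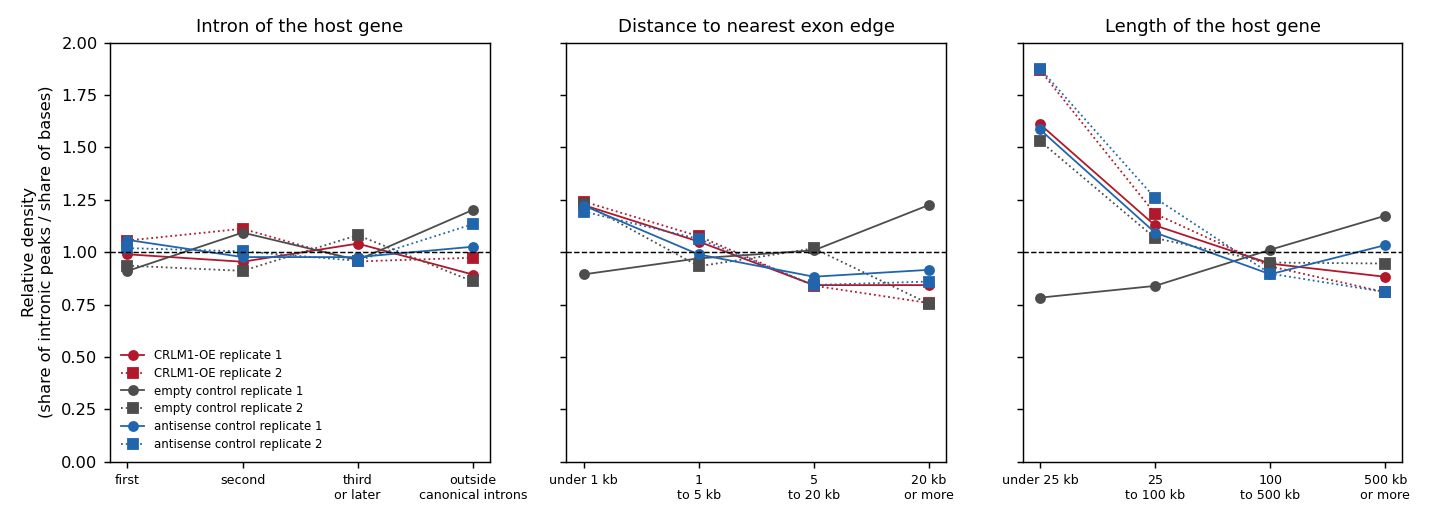
Relative density of intronic peaks (share of intronic peaks divided by share of eligible bases) by intron of the host gene, distance to the nearest exon edge and length of the host gene. Each line is a list and the dashed line is the level of the bases. Empty control replicate 1 lies below 1 within 1 kb of an exon (0.894) and in genes under 25 kb (0.783), where the other 5 lists lie above 1.

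Intronic peaks were densest where the GC content of their central 300 bp was high, except in empty control replicate 1. The mean GC content was 44.9% and 43.9% with CRLM1-OE, 38.5% and 46.0% with the empty, and 43.3% and 42.5% with the antisense control, against 41.2% for tiles of 300 bp with an eligible centre. At 65 to 70% GC the relative density was 4.85 and 4.32 in CRLM1-OE, 4.41 and 4.69 in the antisense control, and 5.04 in empty control replicate 2. In empty control replicate 1 it was 1.32, from 4 peaks. At 70% GC or more, the 6 lists held 82 peaks in all, and CRLM1-OE replicate 2 was the highest at 15.2-fold, with 29 peaks. Empty control replicate 1 had none there, and was instead highest at 30 to 35% GC, at 1.56. The GC dependence of the input coverage was not analysed here.

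**Figure D3:**
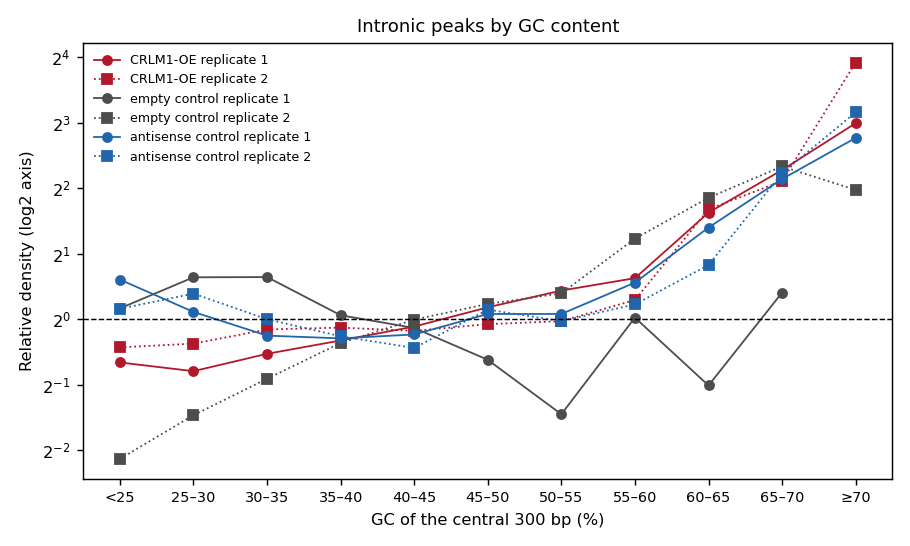
Relative density of intronic peaks (log2 axis) by GC content of the central 300 bp (%), in bins of 5 percentage points with open end bins, for each list. The dashed line is the level of intron tiles. Of the 6 lists, 5 reach 3.93 or more at 70% GC or above, and empty control replicate 1 has no peak in that bin and no point there.

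C tracts were common in intronic peaks, and most of that was matched by intron sequence of the same GC content. A run of at least 4 C on either strand was present in the central 300 bp of 72.9% and 71.2% of the peaks with CRLM1-OE, 61.5% and 77.8% with the empty, and 71.4% and 68.2% with the antisense control. Intron tiles held one in 65.1% of cases. Against tiles of the same GC content the peaks were higher in 6 of 6 lists, by 2.52 ± 0.864 percentage points (SD), with an exact sign-flip permutation p of 0.03125 and an adjusted p of 0.188 over 6 comparisons. Neither strand was higher beyond the spread over lists. The sense strand carried 2.57 to 4.05 tracts per kb and the antisense strand 1.88 to 3.91, a difference of 0.0977 ± 0.345 per kb (SD, n = 6, exact permutation p = 0.563), higher on the sense strand in 4 of 6 lists. This test was against equal strands. Intron tiles carried 2.31 sense and 2.47 antisense tracts per kb, and the strand difference was not tested against them.

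Intronic peaks were shared between lists less often than promoter or intergenic peaks of the same lists. Of all 16214 peaks, 7.41% overlapped a peak of another list. Of the intronic peaks 2.10% and 2.97% did so with CRLM1-OE, 2.20% and 3.19% with the empty, and 3.25% and 2.77% with the antisense control. In the same lists, peaks within 1 kb of the 5′ end of a protein-coding gene (promoter peaks, 1018 in all) overlapped in 17.2 to 31.2% of cases, and peaks more than 10 kb from any gene (intergenic peaks, 3853 in all) in 7.21 to 16.8%. Intronic peaks were lower than intergenic peaks by a difference of -7.02 ± 3.52 percentage points and than promoter peaks by -20.9 ± 4.72, in 6 of 6 lists each. Each difference had an exact sign-flip permutation p of 0.03125 and an adjusted p of 0.0469 over 12 comparisons.

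Sequence differed between these classes of peaks in the same lists. Sequence in which at least 70% of the bases match themselves at some shift of up to 100 bp (tandem-repeat-like) made up 2.80 to 16.9% of the intergenic peaks and at most 0.206% of the intronic peaks (adjusted p = 0.0469, lower in 6 of 6 lists, exact permutation). The part of such repeats in the sharing of intergenic peaks was not tested. The measure takes the match at a single shift, so repeats with units of varying length can stay under the cut. The printed NOTCH1 stretch repeats a short motif, yet the NOTCH1 peaks matched at only 41.5 to 49.6%. The peaks in PLPPR3 reached up to 66.6%. A low share therefore does not mean that intronic peaks are free of repeats. The GC content of intronic peaks was 4.14 ± 1.39 percentage points above that of intergenic peaks, and lay below that of promoter peaks by a difference of -22.7 ± 1.58. C tracts were 14.5 ± 5.64 percentage points more frequent than in intergenic peaks, with a difference of -26.5 ± 3.48 from promoter peaks. All 4 differences held in 6 of 6 lists (exact sign-flip permutation, adjusted p = 0.0469). The classes are defined by position, and the sequence of all promoter and intergenic bases was not counted. Whether the peaks differ beyond the sequence of their classes was therefore not tested, here or for tandem-repeat-like sequence. Intronic peaks were also narrower than promoter peaks, by -0.43 ± 0.24 in log2 width (adjusted p = 0.0469, exact permutation). Neither the score (log2 difference -0.01, adjusted p = 0.500) nor the width (0.02, adjusted p = 0.375) differed from intergenic peaks beyond the spread over 6 lists by the same exact permutation test.

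Regions made of intronic peaks were nearly all called in a single list. Of 5707 regions, 5648 were called by intronic peaks of 1 list, 54 of 2 lists, 2 of 3 lists and 3 of 4 lists, and none of 5 or 6, so that 1.03% were called in at least 2 lists. Pairs of lists from different groups shared 0.139 to 0.510% of their regions, and pairs of replicates lay within that range. The CRLM1-OE lists shared 9 regions (0.345% of the regions in either), the empty control lists 3 (0.192%) and the antisense control lists 5 (0.315%). The most similar pair of the 15 was empty control replicate 2 and antisense control replicate 1, with 9 regions (0.510%). The CRLM1-OE pair ranked 3.

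The regions in SEPTIN9, PKM and NOTCH1 were each called in 4 lists. The SEPTIN9 region (chr17:77355855-77357606, in intron 2 of 11) had peak scores of 95.89 in CRLM1-OE replicate 2, 89.56 and 136.54 in the empty control and 80.32 in antisense control replicate 2. Scores are the authors' values on a scale that is not given, and by rank within a list this region stood between 48 and 237. It was absent from CRLM1-OE replicate 1, the longest list. The PKM region (chr15:72228880-72231580, in intron 1 of 10) was called in both CRLM1-OE lists, with scores of 112.07 and 276.15, and in both antisense control lists, with 65.57 and 71.23, and in neither empty control list. Its peaks touched exons and had their midpoints 1171 to 1761 bp from the 5′ end of the gene. The NOTCH1 region (chr9:136527969-136528973, in intron 2 of 33) was called in CRLM1-OE replicate 2, empty control replicate 1 and both antisense control lists, with scores of 66.54, 58.49, 50.97 and 62.42, the lowest of which was close to the floor of 50. Its peaks held 7 to 9 sense C tracts in 300 bp and at most 2 on the antisense strand.

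A further 2 regions were called in 3 lists. The region at chr19:2301974-2303523 lay in intron 1 of ENSG00000273734 and within the body of LINGO3, which encodes a leucine-rich repeat membrane protein. It was called in CRLM1-OE replicate 2, empty control replicate 1 and antisense control replicate 1, with scores of 119.45, 88.07 and 72.08.

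By both replicates of CRLM1-OE and by no control list 8 regions were called (0.14% of the 5707). The same count was 2 (0.035%) in each of the control groups, whose lists are shorter. The 5 with the best mean score rank lay in PLPPR3, SPNS2, EEF1A1, FASN and CAPN2. The PLPPR3 region (chr19:814254-817979) merged 4 peaks, with scores of 102.01 and 121.92 in replicate 1 and 103.02 and 316.29 in replicate 2. SPNS2, which encodes a sphingosine-1-phosphate transporter, had scores of 105.99 and 127.68 in intron 9 (chr17:4533304-4534674). FASN, the gene of fatty acid synthase, had scores of 82.39 and 71.78 (chr17:82095454-82097141), and its peaks lay 72 and 164 bp from an exon. EEF1A1, which encodes a translation elongation factor, had 147.96 and 65.89, outside the introns of its canonical transcript. CAPN2, the gene of a calpain protease, had 71.67 and 65.17 in intron 9. At least 1 peak each of PLPPR3, SPNS2, EEF1A1 and FASN touched an exon, and those of CAPN2 did not.

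The highest-scoring intronic peak of each list lay in a different gene. They were CIRBP, which encodes a cold-inducible RNA-binding protein (score 227.63), and RAB26, which encodes a small GTPase (365.78), in the CRLM1-OE lists. In the empty control lists they were IGDCC4 (127.37) and CDC45 (158.59), the latter encoding a DNA replication factor. In the antisense control lists they were GSE1 (133.51) and IL34 (130.21), which encodes a cytokine. Among all peaks of their list they ranked from 6 for IGDCC4 to 138 for CDC45. The peaks in CIRBP, RAB26 and IGDCC4 touched an exon, and the midpoint in CIRBP lay 1055 bp from the 5′ end of the gene. The peaks in CIRBP, GSE1 and IL34 lay outside the introns of the canonical transcript.

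Sharing was also counted by host gene, where lists can share a gene through peaks at different places. Of 16649 genes with an eligible base, 20.2% held an intronic peak in some list and 984 (5.91%) in at least 2 lists. The 984 are among 3364 host genes. The shares of genes and of regions have different denominators and were not compared. Both CRLM1-OE lists shared 234 host genes (1.41%), both empty control lists 99 (0.595%) and both antisense control lists 117 (0.703%), in the order of the groups' numbers of intronic peaks. Both lists of a group and no other list held a peak for 80 host genes in CRLM1-OE (0.481%), 27 in antisense control (0.162%) and 19 in empty control (0.114%). In all 6 lists there were 7 (0.042%): RBFOX3, CDH13, SDK2, CSMD3, GSE1, ATRNL1 and SEPTIN9. Genes that recurred were long, and the part of length, chromosome or DNA copy number in their recurrence was not tested. The 34 genes in at least 5 lists had a median length of 805 kb, and 24 of them were 500 kb or longer, which holds for 322 of the eligible genes. Genes in 1 list had a median of 84.7 kb.

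RBFOX3, which encodes a neuronal splicing regulator known as the antigen NeuN, held 54 intronic peaks, the most of any gene. They were 19 and 1 in the CRLM1-OE lists, 1 and 27 in the empty control lists and 5 and 1 in the antisense control lists. Thus 46 of the 54 came from CRLM1-OE replicate 1 and empty control replicate 2, which are also the lists with the narrowest peaks. Per Mb of eligible intron that is 108 peaks, 21.3 times the density over all genes, on a gene of 522 kb (chr17:79089345-79611051, minus strand). The peaks were spread along the gene, from 17.4 to 515 kb from its 5′ end, with 16 in the first intron, 16 in the second and 22 in later introns. Of the 54, 4 (7.41%) overlapped a peak of another list, against 2.10 to 3.25% of all intronic peaks in the 6 lists. These 4 overlap each other in pairs. One pair is from CRLM1-OE replicate 1 and antisense control replicate 1, and the other from both empty control lists. The part of the high peak density of the gene in this overlap was not tested. The mean GC content of the 54 peaks was 53.8%, and that of the 33 tiles of the gene was 56.7%. The surroundings were dense as well. Other host genes within 5 Mb had 23.6 peaks per Mb, against 5.08 over all genes. Chromosome 17 outside RBFOX3, these genes included, had 10.3. The DNA copy number of this part of the chromosome in the cells was not analysed here.

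**Figure D4:**
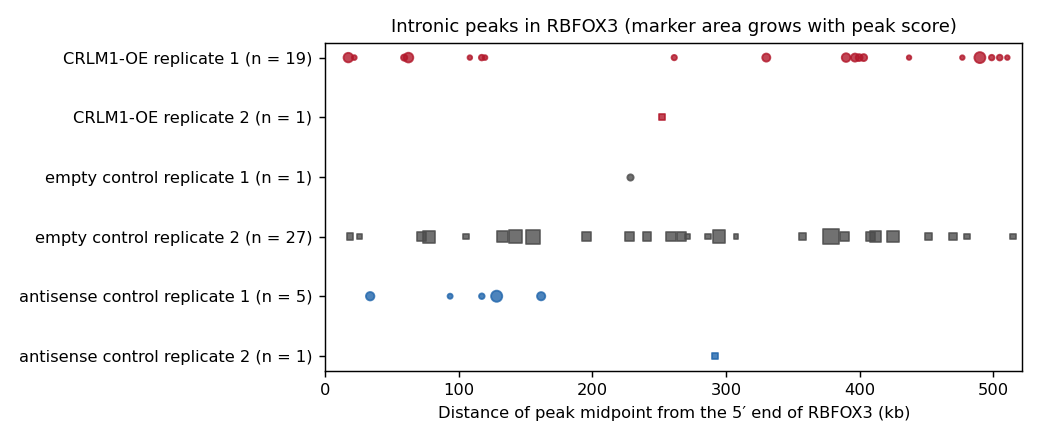
Position of the 54 intronic peaks in RBFOX3, as distance of the midpoint from the 5′ end of the gene (kb), in each list, with marker area growing with the peak score. CRLM1-OE replicate 1 and empty control replicate 2 hold 19 and 27 peaks spread along the gene, and the other 4 lists hold 1 to 5.

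The other genes with peaks in 5 or 6 lists had fewer peaks. CDH13, which encodes a cadherin without a cytoplasmic tail, held 24 peaks on 1174 kb, with 5 and 4 with CRLM1-OE, 1 and 8 with the empty, and 5 and 1 with the antisense control. SDK2, which encodes a synaptic adhesion protein, held 14 and CSMD3 held 13. TBCD, which encodes a tubulin-folding cofactor, had 12 peaks on only 194 kb, or 14.8 times the overall density. It lies on chromosome 17, as do RBFOX3, SDK2, SEPTIN9 and CA10. The values for GSE1, ATRNL1, CA10 and CDH18 were 11, 10, 12 and 11 peaks, at 1.99 to 4.69 times the overall density.

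**Figure D5:**
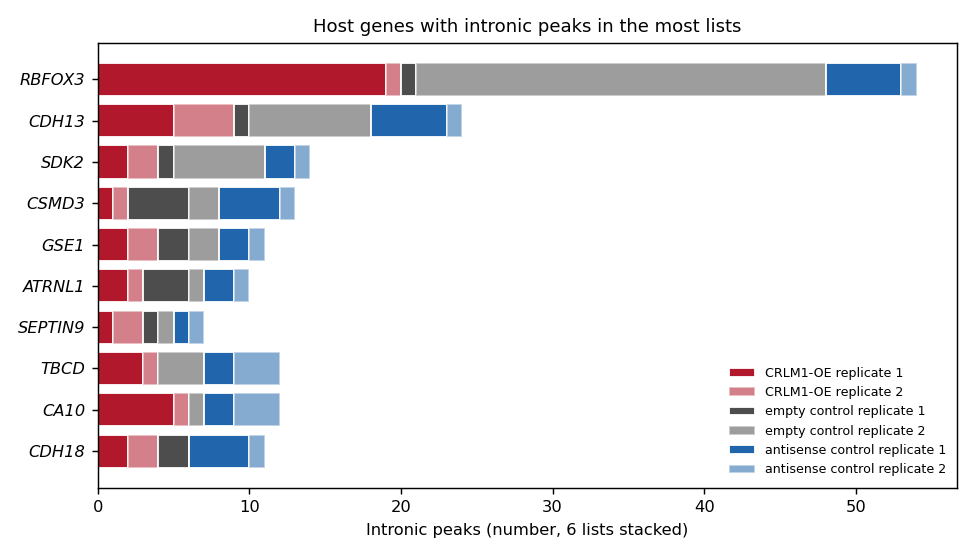
Number of intronic peaks in the 10 host genes with peaks in the most lists, stacked by list. RBFOX3 holds 54, of which 27 are from empty control replicate 2, and the others hold 7 to 24.

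By chromosome, intronic peaks were densest on 19 and 17, whose median relative density over the lists was 2.06 and 2.00. On chromosome 17 all 6 lists were above 1, from 1.55 to 3.48. Chromosomes 22 and 21 differed between lists. On chromosome 22 the values were 3.39 in CRLM1-OE replicate 1 and 5.43 in empty control replicate 2, and 1.11 to 1.33 in the other 4 lists. On chromosome 21 they were 2.79 and 4.22 in the same pair of lists and 0.601 to 1.43 in the others. The pair with the high values is again the pair with the narrowest peaks. The part of peak width or of DNA copy number in these values was not tested.

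Host genes were also grouped by function in lists of 38 to 40 genes. Densities are per Mb of eligible intron, relative to all genes, which allows for the number of bases in long and short genes. Density still varied with host length, with a median of 1.60 under 25 kb and 0.914 at 500 kb or more. RNA-binding and splicing factors stood at 3.62, with 91 peaks in 15 of 38 genes, and the lists ranged from 0.777 to 9.23. This rested on RBFOX3, without which the value was 1.64 and the range 0.432 to 3.16. PCBP3, which encodes a poly(C)-binding protein with KH domains related to hnRNPK, held 15 peaks, 8 of them in empty control replicate 2 and 5 in CRLM1-OE replicate 1. MSI2, which encodes an RNA-binding protein of the Musashi family, held 6 peaks in 4 lists.

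Pooled over the lists, most of the other functions were near the density of all genes, but single lists spread widely. Apoptosis and p53 pathway genes held 12 peaks, and their lists ranged from 0 to 2.01. Chromatin regulators held 31, and their lists ranged from 0.666 to 1.99. Cell adhesion and matrix genes stood at 1.11, ion channels and neurotransmitter receptors at 1.16, apoptosis and p53 pathway genes at 1.11, chromatin regulators at 1.06, and small GTPase regulators and cytoskeleton genes at 0.910, each with lists on both sides of 1. Axon guidance and synaptic adhesion genes were below 1 in 5 of 6 lists, at 0.750, with a peak in 32 of 39, as were very long genes including those at fragile sites, at 0.747 with 35 of 37. Of all eligible genes 20.2% held a peak, and the median length of these lists of genes was 846 and 1075 kb against 34.6 kb. Genes of Wnt, TGF-beta and growth factor signalling were at 0.537 with 15 peaks in 8 of 39 genes (20.5%), near the share of all genes. In each of these 3 lists of genes the list above 1 was empty control replicate 1.

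Some named members show how length and density part. PTPRD, which encodes a receptor phosphatase of synapses, held 9 peaks in 5 lists, and on its 2299 kb that is 0.785 times the overall density. CACNA1A, which encodes a calcium channel subunit, held 10 peaks in 5 lists on 427 kb, or 5.15 times. BBC3, the gene of the proapoptotic protein PUMA, held 2 peaks, both in antisense control replicate 1, and HDAC4, a histone deacetylase gene, held 3, all in the CRLM1-OE lists. With so few peaks per gene, no difference between groups could be shown for any of them.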

How the data were processed

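Per the study's methods, reads were trimmed (cutadapt) and mapped to GRCh38 (Bowtie2), and the authors used MACS2 to call peaks in each IP library against its input. The deposited lists hold 5 columns without a header: chromosome, start, end, name and score. The score is the authors' own and was at least 50 in all lists. The methods give a q-value cutoff, which could not be matched to this floor, so the caller settings behind the lists are not known. Its scale is not given in the sources used here, so it was used for ranks, cuts and log2 differences between classes of peaks within a list. No read numbers come with the lists, so the depth is unknown and Wilson intervals cover counting error only. Of the deposited peaks, 554 lay off chromosomes 1 to 22, X and Y and were not used. The number of per-sample columns left unused was 0.

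Midpoints were placed on GENCODE release 44 with Python 3.11.15, numpy 2.4.6, pandas 2.3.3 and scipy 1.17.1. Shares over eligible bases were counted from every base. GC and C tracts came from the central 300 bp and from every 50th tile of 300 bp. A planned share of soft-masked sequence could not be had because the genome file is in capitals, so tandem-repeat-like sequence was used. Lists were the replicates. Groups were compared with two-sided exact permutation tests of list labels, and lists against bases or other peaks with two-sided exact sign-flip tests, adjusted by the Benjamini-Hochberg method. Host genes were the longest at a midpoint. The position code was tested on 1200 simulated positions, of which 1200 were assigned as by a separate interval check.

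Regions and genes are named by these rules: the 5 regions in the most lists (1 is not reported here), the 5 best-ranked regions in both CRLM1-OE lists and no control list, the highest-scoring intronic peak of each list, the 10 host genes in the most lists, and up to 4 genes of each function list. The members and lists were chosen with earlier results of these data known. Replicate numbers recur in the groups, but lists with the same number did not deviate together over windows of 10 Mb (correlations of -0.388, 0.00386 and -0.0866).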

Additional observations from a re-analysis of the deposited data

Results flagged for a closer look

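Of 25 measures compared over the 6 lists, 5 had a highest or lowest list farther from the others than Dixon's 95% critical value allows. Chance flags about 1 measure in 20, and the measures are related. Empty control replicate 1 was the list apart in 3 of them. Its median host gene length was 262763 bp, against 159581 to 180970 bp in the other lists, its median distance to the nearest exon edge was 4357.5 bp, against 2471.5 to 3009.5 bp, and it held 1.88 antisense C tracts per kb, against 3.41 to 3.91. Empty control replicate 2 was apart in the other 2. Its intronic peaks differed from its promoter peaks by -19.6 percentage points in GC content, against -24.1 to -22.6 in the other lists, and from its intergenic peaks by -16.7 percentage points in tandem-repeat-like sequence, against -7.23 to -2.80.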

How the results depend on the processing

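The 12 comparisons of intronic with other peaks and the 20 of groups were repeated with 5 kb from gene ends, exon-free peaks, higher scores, the 1000 highest-scoring peaks and other settings. No group comparison could pass at any setting, and no call changed except when a list was left out. Sizes did change: for the 1000 highest-scoring peaks and those above the median score, tandem-repeat-like sequence against intergenic peaks was -15.6 and -12.3 percentage points and recurrence -17.1 and -13.9, and C tracts over whole peaks were -10.3 against promoter peaks. With 5 lists the smallest sign-flip p is 0.0625, so the 8 calls against other peaks, and the share against bases at its unadjusted p, then miss 0.05 by construction. Their ranges were -3.33 to -2.48 percentage points for the share of peaks against bases. Against intergenic peaks they were 3.88 to 4.64 for GC, -7.96 to -5.17 for tandem-repeat-like sequence, 12.9 to 16.3 for C tracts and -7.57 to -5.70 for recurrence. Against promoter peaks they were -0.49 to -0.35 (log2) for width, -23.3 to -22.4 for GC, -27.8 to -25.9 for C tracts and -22.2 to -19.5 for recurrence.

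Differences that were not called changed sign. With the replicate number as a block, CRLM1-OE minus empty control stayed at -2.27 percentage points for the share of peaks, with 0 calls and a smallest possible p of 0.5, and a crossed pairing of CRLM1-OE and empty control also gave 0 calls. For the first-intron share, CRLM1-OE minus antisense control was 0.342 among wide lists, and CRLM1-OE minus the 4 control lists was -0.0346 at 5 kb and -0.0871 above the median score. For log2 host length, CRLM1-OE minus antisense control was -0.012 at 5 kb, -0.17 above the median score, -0.36 for the highest 1000, -0.012 with a single host and -0.015 among wide lists. For recurrence, CRLM1-OE minus empty control was 0.632, 2.18 and 0.773 above the median score, for the highest 1000 and among wide lists, minus antisense control 0.760 and 2.74 for the former pair, and minus the 4 control lists 0.696, 2.46 and 0.229 in the same order. Antisense minus empty control was -0.0733 at 5 kb, -0.410 for exon-free peaks, -0.128 above the median score, -0.565 for the highest 1000 and -1.10 for midpoints within 5 kb. Against bases, the first-intron share was 0.00927 at 5 kb, 0.999 for exon-free peaks, 1.08 above the median score, 1.55 for the highest 1000 and 0.113 with a single host. For exon-free peaks, log2 host length was 0.065 and log2 exon distance 0.10, since such peaks cannot lie next to exons while the bases still can. Width against intergenic peaks was -0.0010 for exon-free peaks and -0.0047 for the highest 1000, and tandem-repeat-like sequence against promoter peaks was 0 over whole peaks. The causes of the other changes were not tested.

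Leaving out a list gave -3.92 to -0.626 (CRLM1-OE minus empty control), -2.51 to 0.787 (minus antisense control) and -3.21 to 0.0803 (minus the 4 control lists) for the share of peaks, -1.02 to 0.342 for the first-intron share, -0.088 to 0.094 for log2 host length and -0.15 to 0.035 for log2 exon distance (minus antisense control). For recurrence it gave -0.657 to 0.336 (minus empty control), -0.757 to 0.117 (minus the 4 control lists) and -0.177 to 0.816 (antisense minus empty control). The first-intron share against bases ranged from -0.367 to 0.249. RNA-binding genes stood at 1.64 without RBFOX3, an alternative added after the data were seen, as were the GC-matched values. Depth is unknown, so lists of different length may differ in sensitivity.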

Other observations

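The X chromosome held 9 intronic peaks in the 6 lists together, at a relative density of at most 0.0606, and 21 peaks of any kind, while the Y chromosome held no intronic peak and 49 peaks of any kind.

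The densest windows of 5 Mb with intronic peaks lay on chromosomes 17 and 16. Of 497 windows, the densest was at 80 to 85 Mb of chromosome 17, with 58 peaks and 34.2 per Mb, then 75 to 80 Mb of the same chromosome, with 82 peaks and 32.4 per Mb, and 85 to 90 Mb of chromosome 16, with 65 peaks and 29.7 per Mb. All 3 held peaks of 6 lists. Densities are per Mb of the reference genome, and the copy number of these windows in the cells was not analysed here.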
